A study of Homo sapiens with 63 samples.

Results

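SGPP2 and the genes around it in sphingosine 1-phosphate metabolism were followed across a panel of small cell lung cancer (SCLC) lines. The set holds 8 genes, SGPP2, SGPP1, SPHK1, SPHK2, SGPL1, ASAH1, S1PR2 and S1PR3, and every array probe that carries 1 of these symbols was used. SGPP2 was chosen by the difference of its untreated signal between the lines marked as sensitive and the others, so that contrast is described here without a test, and the other 7 genes were taken for their place in the pathway. Of the 8 genes, 7 had a probe (10 probes) and 6 had a probe that passed the filter on dim signals (8 probes), of 20044 genes with a probe and 15460 with a kept probe on the array. SPHK2 was not analysed here, as none of the probes used carries its symbol.

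The study examined whether veliparib (ABT888), an inhibitor of poly (ADP) ribose polymerase, adds to the effect of chemotherapy and radiation on SCLC cells. Each of 9 lines, DMS53, DMS114, DMS153 and the 6 lines H69, H128, H146, H187, H209 and H526, was profiled under 7 conditions with 1 Illumina HT-12 v4 array for each, 63 arrays in all. The conditions were vehicle (Con), veliparib at 5 µM (A5) or 50 µM (A50), cisplatin alone (C+0), cisplatin with 5 µM (C+5) or 50 µM (C+50) veliparib, and 2 Gy of gamma radiation (Rad). Cisplatin was given at a dose of each line's own, 0.4 µM in H526, 1.7 in H187, 4.3 in H69, 4.7 in DMS153, 5.2 in H146, 8 in DMS114, 12.5 in DMS53, 14.2 in H209 and 14.5 in H128, and the methods state 24 h of treatment where the labels describe longer exposure.

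The lines that the study marked as sensitive to the addition of veliparib to chemotherapy were H146, H187, H209, H526 and DMS153, and the other 4 are called insensitive. The marks and the naming of lines in the study's text are not the same, since the text places DMS114 in the sensitive set in place of DMS153, and the values with that set are given for SGPP2 and SPNS2 and for the tests among the alternatives. Each line is a culture from 1 tumour, and the culture used as H128 did not match the published short tandem repeat profile of that line, per the methods. A line stands for 1 replicate in every comparison, and the 7 arrays of a line share its genome.

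Sphingosine 1-phosphate is a signalling lipid made inside the cell by the sphingosine kinases SPHK1 and SPHK2. The phosphatases SGPP1 and SGPP2 of the endoplasmic reticulum turn it back into sphingosine, which can be rebuilt into ceramide, whereas the lyase SGPL1 cleaves it irreversibly and is its only exit from the sphingolipid pool. ASAH1, the acid ceramidase of lysosomes, supplies sphingosine, and exported sphingosine 1-phosphate acts on G protein-coupled receptors that include S1PR2 and S1PR3. Ceramide is widely associated with growth arrest and cell death and sphingosine 1-phosphate with survival.

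The promoter windows of SGPP2 are shown because, of the 8 genes, its signal differed most between the lines (a range of 2.32 in line means, against at most 1.28 for any probe of the others). Windows from RefSeq's promoter table (build GRCh38.p14) are reported for 6 of the 8 genes, and SGPP2 had a pair of start sites on the plus strand of chromosome 2. No window of SGPP1 or ASAH1 was among those searched, so nothing is said of their letters. The 250 bases before each start site follow, at chr2:222423738-222423987 and chr2:222424293-222424542, in lower case with 2 searched motifs in capitals, the NF-κB consensus and the AP-1 site TGACTCA.
SGPP2 window 1: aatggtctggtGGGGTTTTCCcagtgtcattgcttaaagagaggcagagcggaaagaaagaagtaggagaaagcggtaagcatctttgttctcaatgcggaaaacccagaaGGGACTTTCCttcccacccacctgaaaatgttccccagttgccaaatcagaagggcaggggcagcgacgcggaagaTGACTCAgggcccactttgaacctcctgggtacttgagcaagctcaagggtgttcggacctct
SGPP2 window 2: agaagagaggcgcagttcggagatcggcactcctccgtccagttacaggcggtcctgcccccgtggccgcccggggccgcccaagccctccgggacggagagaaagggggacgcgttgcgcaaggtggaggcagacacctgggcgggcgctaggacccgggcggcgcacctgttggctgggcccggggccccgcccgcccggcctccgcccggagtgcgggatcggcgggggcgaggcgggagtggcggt
In the first window the NF-κB consensus began 239 and 139 bases and the AP-1 letters 63 bases before the start site, and the second window held neither. Both motifs were searched on both strands and do not overlap each other in these letters. The NF-κB consensus was found in 1828 of 35116 windows of the same length (5.21%) and the AP-1 letters in 1476 (4.2%). Among the 11 reported windows of the 6 matched genes, the NF-κB consensus stood only in this SGPP2 window, and the AP-1 letters stood here and in 1 of the 3 windows of SPHK1. SGPP1 and ASAH1 are not covered by this count, so it does not hold for all member genes. A match is a description of the letters, and binding was not measured.

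The arrays detected between 19124 and 22330 probes each at a detection p under 0.05, with a median of 20692. All values below are log2 signals after quantile normalization, where the lowest detected signals of an array lay between 6.65 and 6.71, and no background was subtracted here, so a fold change of a dim probe is understated. Of the 10 neuroendocrine markers measured, 7 to 10 were detected on all 7 arrays of a line, with the fewest in DMS114. INSM1, a neuroendocrine transcription factor, lay between 9.96 and 11.95 as a line mean in 8 lines and at 6.67 in DMS114, where it was detected on 3 of 7 arrays. POU2F3, a tuft cell factor, was at 9.75 in H526 and at most 6.65 in the other lines, and YAP1, of the Hippo pathway, was at 8.63 in DMS114 and undetected in the rest. Of the 7 fibroblast markers measured, 4 were detected on all 7 arrays of DMS114, against 0 to 2 in the other lines. These were COL3A1 at 11.47, DCN at 11.27, LUM at 10.12 and PDGFRB at 7.39, whereas COL1A2 and FAP were not detected there. Over the 7 genes the log2 signals summed to 60.1 in DMS114 and to between 45.6 and 49.3 in the other lines. H526 is thus a sensitive line that stands apart in POU2F3 and AVIL, and shares ASCL2 and TRPM5 with other lines. DMS114 is an insensitive line that stands apart in INSM1, YAP1 and 4 fibroblast markers. The tests were repeated without each line.

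SGPP2 was present in 6 of the 9 lines and not detected in the other 3. Its brighter probe, probe 1, was detected on 42 of 63 arrays, all 7 of each of those 6 lines and none of H69, H128 and DMS114. In Con its log2 signal was 8.86 in H187, 8.82 in H146, 8.80 in H526, 8.76 in DMS153 and 8.62 in H209, then 7.33 in DMS53, 6.68 in H128, 6.59 in DMS114 and 6.56 in H69. The signals thus fell into a high level in 5 lines, an intermediate level in DMS53 and a level at background in 3 lines. On a bulk array, fewer cells with the transcript and less transcript per cell cannot be told apart.

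The level of a line hardly moved over its 7 arrays. The line mean was 8.90 in H187 (SD 0.04 over the 7 arrays), 8.74 in DMS153 (SD 0.13), 8.71 in H526 (SD 0.08), 8.68 in H146 (SD 0.08) and 8.57 in H209 (SD 0.03), with ranges that overlap from each line to the next in this order. A step of 1.35 then separated H209 from DMS53, which had a mean of 7.22 (SD 0.13) and a range of 7.04 to 7.35 that overlaps neither neighbour. The means of H69 (6.59, SD 0.06), H128 (6.58, SD 0.06) and DMS114 (6.58, SD 0.03) were not distinguishable. Differences between lines made up 99.5% of the sum of squares of the probe over the 63 arrays and the conditions 0.148%, whereas the line share had a median of 86.6% over the kept probes, and 2.07% of them had a larger one. SGPP2 was chosen by a difference between lines, so a large line share comes with that choice and is a description only.

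SGPP2 was higher in every sensitive line than in every insensitive line under all 7 conditions. In Con the mean was 8.77 (SD 0.09, n = 5) in the sensitive and 6.79 (SD 0.36, n = 4) in the insensitive lines, a difference of 1.98 or 3.96-fold, and the gap between the lowest sensitive and the highest insensitive line was 1.29. Over all conditions the 35 arrays of the sensitive lines ran from 8.52 to 8.94 (median 8.69) and the 28 of the insensitive lines from 6.50 to 7.35 (median 6.60). The difference of the means stayed between 1.94 in A5 and 2.01 in C+0, and the gap between 1.17 in A50 and 1.51 in C+5. The Con gap was the largest of 30716 kept probes with the sensitive lines higher, a consequence of how the gene was chosen, and 1.34% of these probes did not overlap in Con with the sensitive lines higher, while 0.29% did so in all 7 conditions.

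Against the single lines, the mean of the sensitive lines in Con was 2.73-fold that of DMS53. It was at least 4.21-fold that of H128, at least 4.22-fold that of H69 and at least 4.29-fold that of DMS114, where SGPP2 was undetected and the fold was taken against the lowest detected signal of the array. With background subtracted by neqc (an adjustment from the detection p-values), the difference between the groups was 3.46, or 11.0-fold. H128, H69 and DMS114 then lay at the floor, with line means of 4.51 to 4.54, so this fold depends on the offset of 16 used in neqc. With DMS114 in place of DMS153 in the sensitive set, the groups overlapped in Con (sensitive 6.59 to 8.86, insensitive 6.56 to 8.76) and the difference was 1.01. By name, the 6 H lines held 4 sensitive lines at 8.62 to 8.86, and H69 and H128 at 6.56 and 6.68. The 3 DMS lines were DMS153 at 8.76, and DMS114 and DMS53 at 6.59 and 7.33. With the marked set no line overlapped the other group, so these subsets had to show the same order and add no support.

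**Figure D1:**
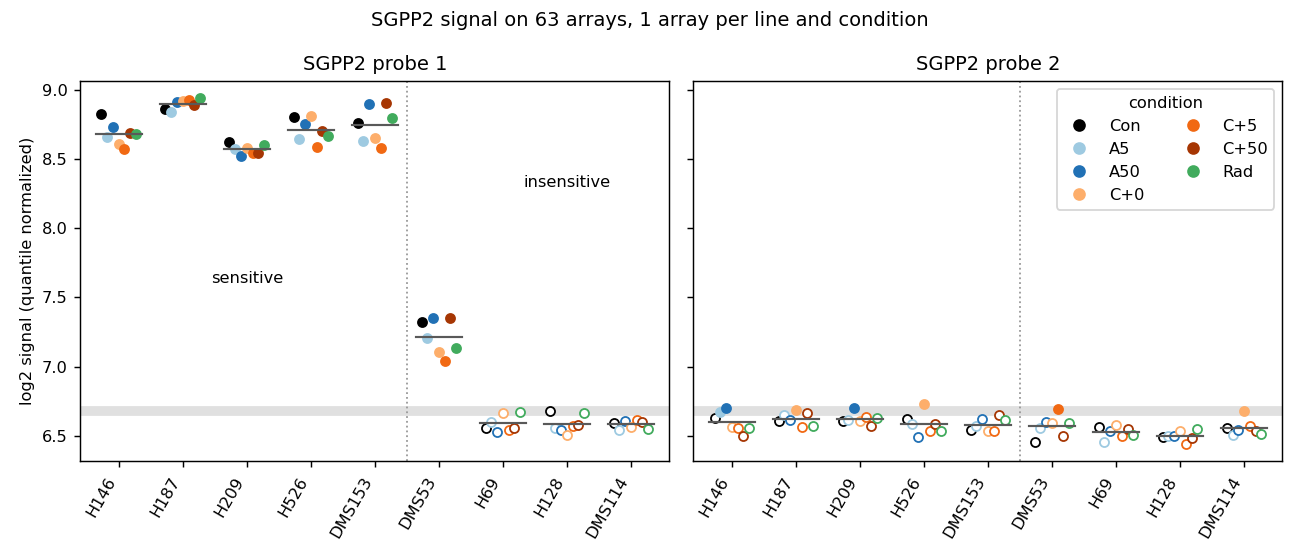
Log2 signal of both SGPP2 probes (vertical axis) on each of the 7 arrays of a line (horizontal axis, coloured by condition). Filled points were detected, open points were not, the bar is the line mean, the grey band spans the lowest detected signals of the arrays, and the dotted line parts sensitive from insensitive lines; for probe 1 all sensitive arrays lie above 8.5 and DMS53 lies between 7.04 and 7.35, while probe 2 stays near the band in every line.

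The other SGPP2 probe carried almost no signal. Probe 2 was detected on 7 of 63 arrays, never on more than 2 of a line, and its line means lay between 6.50 in H128 and 6.62 in H209. The sensitive lines had a Con mean of 6.60 and the insensitive lines 6.51, with overlapping values, and among the 7 conditions the groups of this probe parted only in A5, by 0.02, as did 1.23% of all kept probes with the sensitive lines higher. The line means of both probes had a Pearson r of 0.84 over the 9 lines (Spearman 0.72), on a range of 0.13 for probe 2 against 2.32 for probe 1. The SGPP2 results therefore rest on probe 1.

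SGPP1, the other phosphatase, was detected on all 63 arrays and was not split by sensitivity. In Con its log2 signal was 7.48 in H69, 7.24 in H209, 7.21 in H526, 7.14 in H128, 7.04 in DMS114, 6.98 in H187, 6.89 in DMS153, 6.81 in DMS53 and 6.77 in H146. The sensitive lines averaged 7.02 (SD 0.20) and the insensitive 7.12 (SD 0.28), with overlapping values. H69, where SGPP2 was not detected, had the highest line mean of SGPP1 (7.47, SD 0.05), and DMS53 had the lowest (6.75, SD 0.04). Across the 9 lines the means of SGPP1 and SGPP2 probe 1 had an r of -0.13.

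SGPL1, the lyase, was also detected on every array and fell into a high and a low set of lines that cut across the sensitivity groups. Its line mean was 8.16 in DMS53, 8.06 in DMS153, 8.00 in H209, 7.89 in DMS114 and 7.62 in H187. After a step it was 7.15 in H69, 7.15 in H526, 7.05 in H128 and 7.03 in H146. The ranges of neighbouring lines overlapped everywhere except between H187 (lowest array 7.53) and H69 (highest array 7.22). Both sets held sensitive and insensitive lines, and the Con means of the sensitivity groups differed by -0.04, with an SD of 0.49 among the sensitive and 0.54 among the insensitive lines.

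ASAH1, the acid ceramidase, was brightest in H209. Its probe 1, detected on all arrays, had line means of 8.22 in H209, 7.91 in DMS114, 7.65 in H128 and 7.53 in H526, and of 6.93 to 7.22 in the other 5. The ranges of H209, DMS114 and H128 did not overlap each other. Probe 2 was detected on 31 arrays and gave another order, with H69 highest at 6.83 and H209 at 6.68, so the probes did not rank the lines alike. For both probes the sensitive and insensitive lines overlapped in Con.

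SPHK1, a kinase that makes sphingosine 1-phosphate, was detected only in the 3 DMS lines. Its probe 1 passed detection on 15 arrays, 6 of 7 in DMS114, 6 of 7 in DMS153 and 3 of 7 in DMS53, with line means of 6.79, 6.72 and 6.66, and its line means in the H lines were at most 6.50. In Con the lowest DMS line lay above the highest H line, with 6.55 against 6.47, and 1.58% of all kept probes showed the same order. The order held in the other conditions (6.47 against 6.46 in Rad), for which no such share was counted. The probe was kept only through its DMS arrays and its H values are background, so the order adds nothing to the detection calls. In DMS53 the signal was 6.55 in Con and 6.80, 6.68 and 6.86 in C+0, C+5 and C+50, the arrays of that line on which it was detected. In DMS114 it was 6.71 in Con, 6.89 in C+0, 6.96 in C+5 and 6.66 in C+50. The other SPHK1 probe was detected on 1 array, in DMS153.

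The receptors S1PR2 and S1PR3 differed from each other in where they were seen. S1PR2 was not detected on any array (line means of 6.48 to 6.55). S1PR3 was detected on all 7 arrays of DMS153 (mean 6.94, SD 0.08) and of DMS114 (mean 6.93, SD 0.13) and on none of the other lines, whose means were at most 6.49. One of these lines is marked as sensitive and the other is not.

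**Figure D2:**
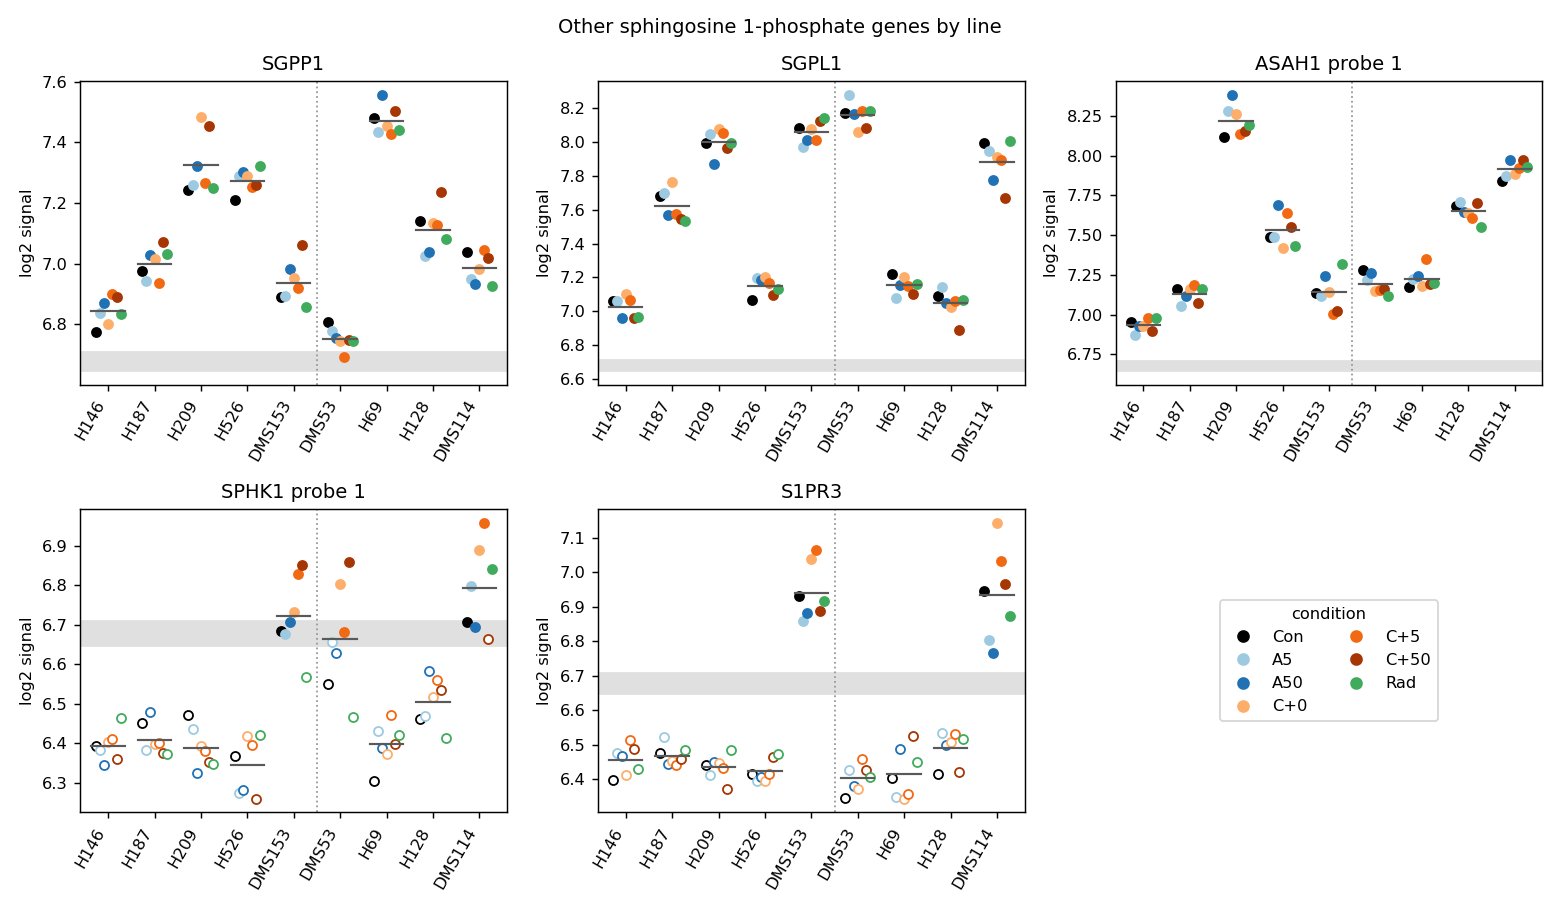
Log2 signal (vertical axes, a separate scale for each panel) of SGPP1, SGPL1, ASAH1 probe 1, SPHK1 probe 1 and S1PR3 on the 7 arrays of each line, coloured by condition. Filled points were detected, open points were not, bars are line means, the grey band spans the lowest detected signals, and the dotted line parts sensitive (left) from insensitive lines; none of these genes splits at the dotted line, and SPHK1 and S1PR3 rise above the band only in DMS lines.

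Treatment changed these genes little, and SGPP2 passed the test in no condition. Each treatment was compared with Con within line in limma, with the line as a block and p-values adjusted over the 30716 kept probes. No member gene was called in A5, A50, C+0, C+5 or Rad, where 0%, 11.7%, 1.26%, 1.66% and 0.827% of all kept probes were called. In these comparisons 1, 2, 0, 2 and 0 of the 8 member probes had an unadjusted p under 0.05, as did 4.23%, 22.9%, 11.3%, 11.4% and 12.2% of all kept probes. In C+50, 2 of the 6 genes were called, SGPL1 and SGPP1, beside 17.2% of all kept probes.

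SGPP2 probe 1 was lower than Con by a mean of 0.12 in C+5 (log2, standard error 0.03, limma adjusted p = 0.0586). The change was below 0 in 7 of 9 lines, from -0.29 in DMS53 and -0.25 in H146 to 0.06 in H187. Of the 3 lines without detected SGPP2, H128 was at -0.11 and H69 and DMS114 at -0.01 and 0.02. The adjusted p was 0.0491 without H69 and 0.0296 without H187, both below the threshold. In the other treatments the mean change ran from -0.09 in A5 to -0.02 in A50 and in C+50, and the 95% intervals of all 6 treatments lay between -0.19 and 0.05.

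SGPL1 fell by 0.10 on the log2 scale in C+50 (standard error 0.03, limma adjusted p = 0.0182). It was lower in 7 of 9 lines, with changes of -0.32 in DMS114, -0.20 in H128, -0.14 in H187, -0.12 in H69, -0.10 in H146, -0.09 in DMS53 and -0.03 in H209, and 0.03 in H526 and 0.05 in DMS153. The adjusted p was 0.123 without DMS114 and 0.0686 without H128. SGPP1 rose by 0.08 in C+50 (standard error 0.03, adjusted p = 0.0411), with 7 of 9 lines higher, from 0.21 in H209 and 0.17 in DMS153 to -0.06 in DMS53. Without H128, H146, H187, H209 or DMS153 its adjusted p lay between 0.0697 and 0.152, and with only the Con and C+50 arrays fitted neither gene was called.

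**Figure D3:**
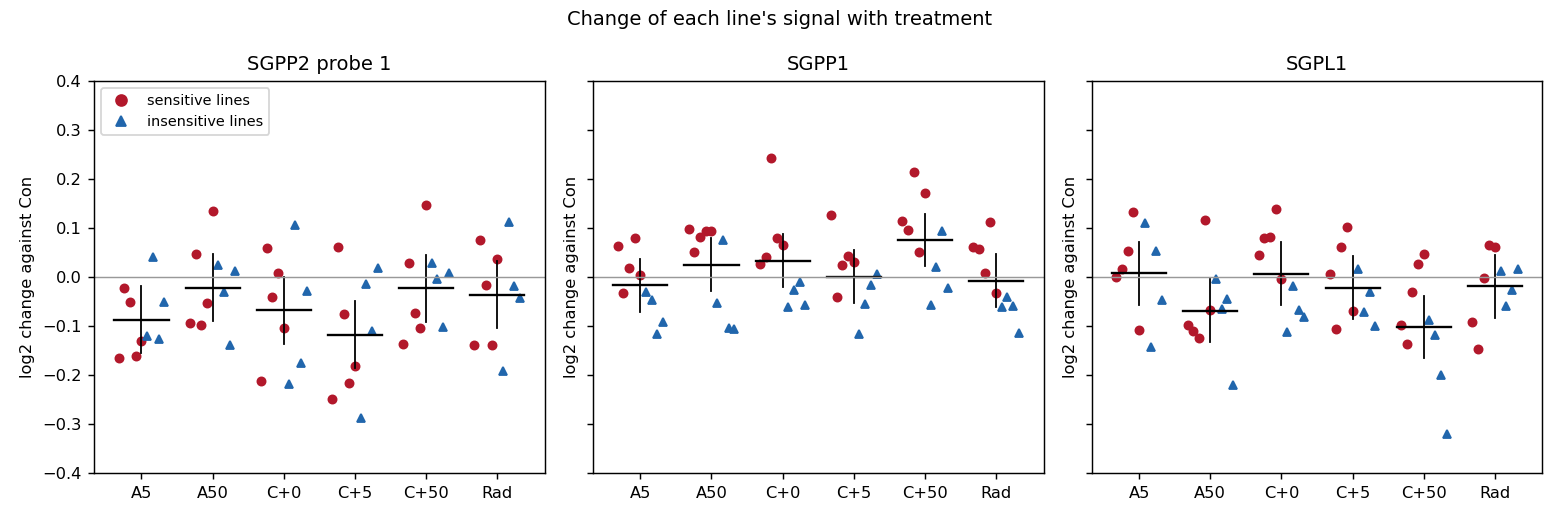
Change of the log2 signal against the Con array of the same line (vertical axis) in each treatment (horizontal axis) for SGPP2 probe 1, SGPP1 and SGPL1. Circles are the 5 sensitive and triangles the 4 insensitive lines, horizontal bars are means over the 9 lines and vertical bars their 95% intervals from limma; most points lie within 0.2 of 0, and the SGPL1 points of C+50 reach -0.32.

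The treatment effects of the members were not shown to differ between the sensitivity groups. In C+50, SGPP1 rose in the sensitive lines by 0.13 (standard error 0.04, limma adjusted p = 0.0111, higher in 5 of 5 lines) and averaged 0.01 in the insensitive ones (adjusted p = 0.937). This was 1 member gene called in the sensitive lines, beside 8.68% of all kept probes. SGPL1 fell in the insensitive lines by 0.18 (standard error 0.05, adjusted p = 0.00495, lower in 4 of 4 lines) and averaged -0.04 in the sensitive ones (adjusted p = 0.716). This was 1 member gene called in the insensitive lines, beside 10.1% of all kept probes. No member gene was called within either group in A5, A50, C+0, C+5 or Rad, where 0%, 6.56%, 0.0163%, 0.0391% and 0.111% of all kept probes were called in the sensitive and 0%, 3.85%, 0.547%, 1.03% and 0.0163% in the insensitive lines.

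The difference between the groups had an adjusted p of 0.631 for SGPP1 (0.12, standard error 0.05) and 0.628 for SGPL1 (0.14, standard error 0.06). No probe of the array was called for a difference in any of the 6 treatments (0%). The call of SGPP1 in the sensitive lines was lost without H209 (adjusted p = 0.067) or DMS153 (0.0813), and that of SGPL1 in the insensitive lines without DMS114 (0.105). For SGPP2 probe 1 the effects of C+50 were -0.03 in the sensitive and -0.02 in the insensitive lines.

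Around the members, the genes of sphingolipid metabolism were called with 50 µM veliparib, alone or with cisplatin, about as often as all genes, and DEGS1, GBA2, ACER3 and GLTP changed most. A list of 48 further genes of sphingolipid metabolism was read with 1 probe a gene, the brightest kept one, and 39 had such a probe. In C+50, 5 of the 39 rose and 4 fell, beside 10.5% and 12.1% of the 15460 genes read in the same way, and the median change was -0.0058 against -0.00092 over all genes. In A50, 3 rose and 4 fell, beside 6.74% and 8.32%, and none of the rises was called with median scaling. These counts lie close to what the share over all genes gives for a list of this size. In C+0 it was 1 and 2 (0.511% and 1.36% of all genes), in C+5 2 and 1 (0.796% and 1.61%), and in A5 and Rad none, with 0% of all genes called in A5 and 0.524% higher and 0.226% lower in Rad.

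Of 14 genes of the ceramide synthesis list, 3 rose in C+50 and none fell, a count too small to read against the 10.5% of all genes that rose. DEGS1, the desaturase that makes ceramide from dihydroceramide, was higher in 9 of 9 lines in C+50, by 0.11 in H187 at the least and 0.49 in DMS53 at the most, with a mean of 0.31 (standard error 0.04, limma adjusted p = 1.09e-08). It rose by 0.25 in A50 (adjusted p = 6.33e-06) and by 0.18 in C+5 (adjusted p = 0.00618), in 9 of 9 lines each, and by 0.15 in C+0 (8 of 9 lines, adjusted p = 0.0318). The C+0 call was lost without H146, H209, DMS53, DMS114 or DMS153, with an adjusted p up to 0.214. KDSR, which reduces 3-ketodihydrosphingosine, was the other gene of this list called in A50, and KDSR and SPTLC2, a subunit of serine palmitoyltransferase, completed the 3 of C+50, with means of 0.22 and 0.11.

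Of 6 ceramidases, ceramide kinase and lipid phosphatases, 3 fell in C+50 and 2 in A50, beside 12.1% and 8.32% of all genes, and so few genes say nothing of the list as a whole. ACER3, an alkaline ceramidase, was lower in 9 of 9 lines in both, with changes of -0.47 to -0.13 and a mean of -0.29 in C+50 (standard error 0.05, limma adjusted p = 7.07e-06), and a mean of -0.24 in A50 (adjusted p = 0.00042). PLPP3, a lipid phosphate phosphatase, fell in A50, C+0, C+5 and C+50, by 0.19, 0.15, 0.17 and 0.23. PLPP1, of the same family, fell in C+50 by 0.10.

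Among 14 genes of sphingomyelin and glycosphingolipid turnover, GBA2 and GLTP moved in opposite directions. GBA2, a glucosylceramidase outside the lysosome, was higher in 9 of 9 lines in C+50 (0.09 to 0.46, mean 0.23, standard error 0.04, limma adjusted p = 1.4e-06) and in A50 (mean 0.22, adjusted p = 5.21e-06). GLTP, a glycolipid transfer protein, was lower in 9 of 9 lines in C+50 (-0.47 to -0.04, mean -0.25, standard error 0.04, adjusted p = 6.01e-06) and in 8 of 9 in A50 (mean -0.21, adjusted p = 0.000286). GALC fell in A50 by 0.12, and CERT1, which carries ceramide to the Golgi, fell in C+0 by 0.21. With each array scaled to its median in place of quantile normalization, the A50 counts became 0 higher and 9 lower, so the rises in A50 depend on the scaling.

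**Figure D4:**
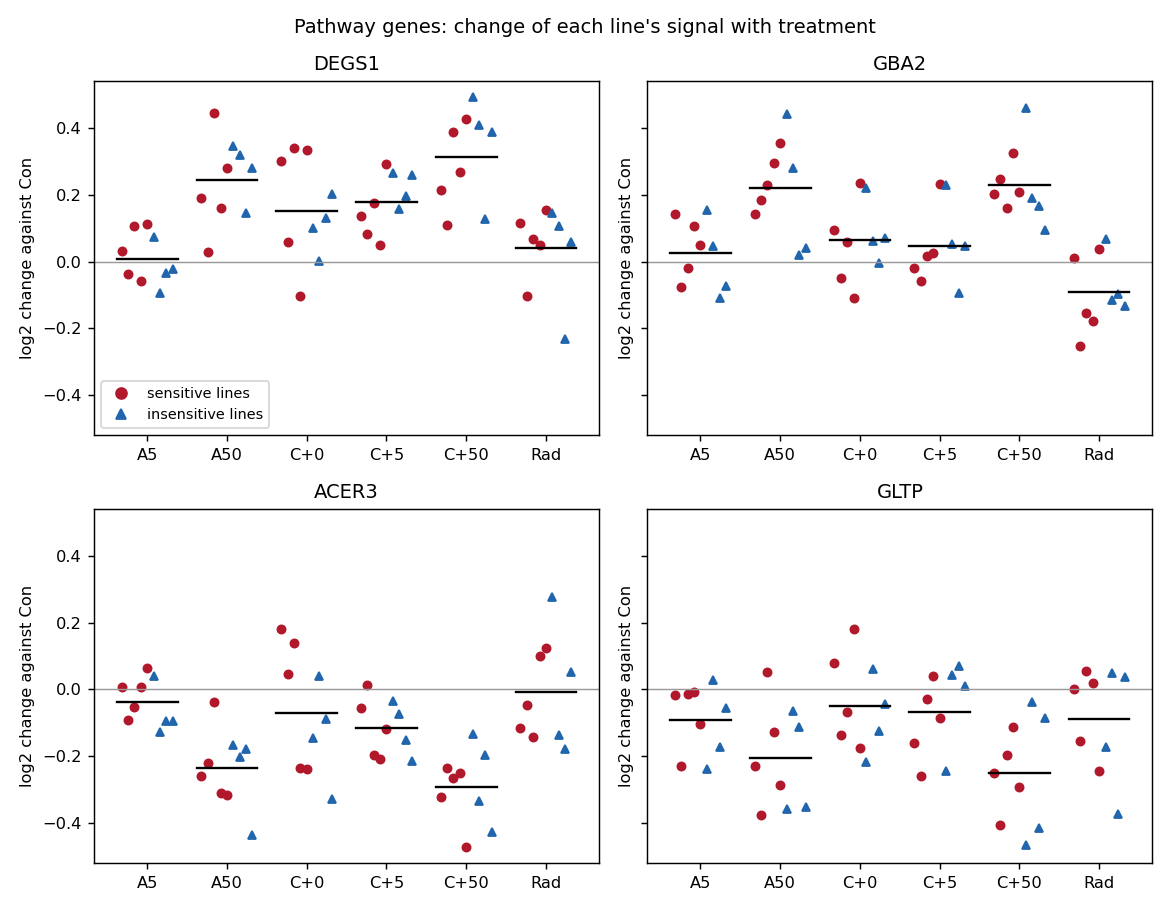
Change of the log2 signal against the Con array of the same line (vertical axis) in each treatment (horizontal axis) for DEGS1, GBA2, ACER3 and GLTP, with circles for the 5 sensitive and triangles for the 4 insensitive lines and bars for the mean over the 9 lines. In C+50 all 9 lines lie above 0 for DEGS1 and GBA2 and below 0 for ACER3 and GLTP.

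In the list of other receptors and transporters, levels also differed by line. SPNS2, which exports sphingosine 1-phosphate, was lower in the sensitive lines, with line means of 6.61 in DMS153, 6.65 in H209, 6.67 in H187, 6.87 in H526 and 6.90 in H146, against 7.11 in DMS53, 7.14 in DMS114, 7.28 in H69 and 7.76 in H128. It was not detected in DMS153 and was detected on 2 of 7 arrays of H209 and 3 of 7 of H187, so these lie near background, and on all arrays of the other 6 lines. It was the 1 gene of the 39 whose line means did not overlap, beside 2.93% of all kept probes, and no test was made. With DMS114 in place of DMS153 in the sensitive set the groups overlapped (6.65 to 7.14 against 6.61 to 7.76). By condition the groups of SPNS2 were apart in 6 of 7, all but C+50, as 0.778% of all kept probes were in 6 or more. In Con, 2 of the 39 genes did not overlap (SPNS2 and PLPP1, both lower in the sensitive lines), beside 2.79% of all kept probes. In A5 and A50 these were SPNS2 and ORMDL3, an inhibitor of serine palmitoyltransferase that was higher in the sensitive lines, beside 2.54% and 2.48%. In C+50 it was SGMS1, a sphingomyelin synthase, and in Rad SGMS1 and SPNS2, lower in the sensitive lines, beside 2.75% and 2.52%. These counts lie near the share over all probes.

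The remaining receptors were chosen for mention after their values were seen. S1PR1 had a mean of 9.92 in DMS114 (SD 0.12, 7 arrays) and of 6.68 to 6.88 in the other 8 lines. S1PR4 was detected on all 7 arrays of DMS114 (mean 7.03, SD 0.07). In the other lines S1PR4 was detected on at most 4 of 7 arrays, with means of 6.54 to 6.69. S1PR5 was highest in DMS114 (7.50, SD 0.09), followed by H69 (7.04, SD 0.06) and DMS153 (6.89, SD 0.05), and was called in C+5 and C+50, by 0.10 and 0.08, with 9 of 9 lines higher in each. It was not detected on any array of H128, H187, H209 and H526, so 4 of these 9 changes are of signal at background. DMS114 thus had high S1PR1 and S1PR5, detected S1PR3 and S1PR4 and no detected SGPP2. It is also the line with the lowest neuroendocrine markers and with the high COL3A1, DCN, LUM and PDGFRB given above, whose part in these levels was not tested.

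The genes whose line means were most like those of SGPP2 probe 1 were sought over 21619 other kept probes with 1 symbol, by Pearson r over the 9 lines. FGF12, a fibroblast growth factor homologue that stays in the cell and binds sodium channels, held the first and second place with its probes (r of 0.96 for both). It was followed by RPRD1B, which binds the tail of RNA polymerase II (0.95), MRPL33, of the mitochondrial ribosome (0.95), SPICE1, of the spindle and centrioles (0.95), and DHDH, a dihydrodiol dehydrogenase (0.95). The line means of SPICE1 ran only from 6.50 to 6.64, below the lowest detected signals of the arrays. Its r is thus of signal near background, and in Con alone its rank was 318. The lowest r were those of METRN (-0.97), OGFOD1 (-0.97) and PLEKHN1 (-0.96). With 9 points of which 5 sit at 1 level and 3 at another, r mainly reads the split between lines, and by rank correlation 0 of the 6 probes stayed among the first 6. In Con alone 4 stayed, and with neqc or median scaling 3 each.

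FGF12 was split between the lines much as SGPP2 was. Its probe 1 had line means of 8.93 in H187, 8.85 in H146, 8.64 in DMS153, 8.48 in H526 and 8.45 in H209, then 8.06 in DMS53, and 6.68, 6.62 and 6.55 in DMS114, H128 and H69. Probe 2 ran from 7.80 to 8.33 in the 5 sensitive lines, was at 7.43 in DMS53 and at 6.41 to 6.52 in the other 3. The range of its probe 1 in DMS53 (7.74 to 8.28) met those of H209 and DMS153, whereas SGPP2 in DMS53 overlapped no other line. RPRD1B and MRPL33 were expressed in all lines, and differed by 0.71 and 0.98 between their highest and lowest line, against 2.32 for SGPP2 and 2.39 for FGF12 probe 1.

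**Figure D5:**
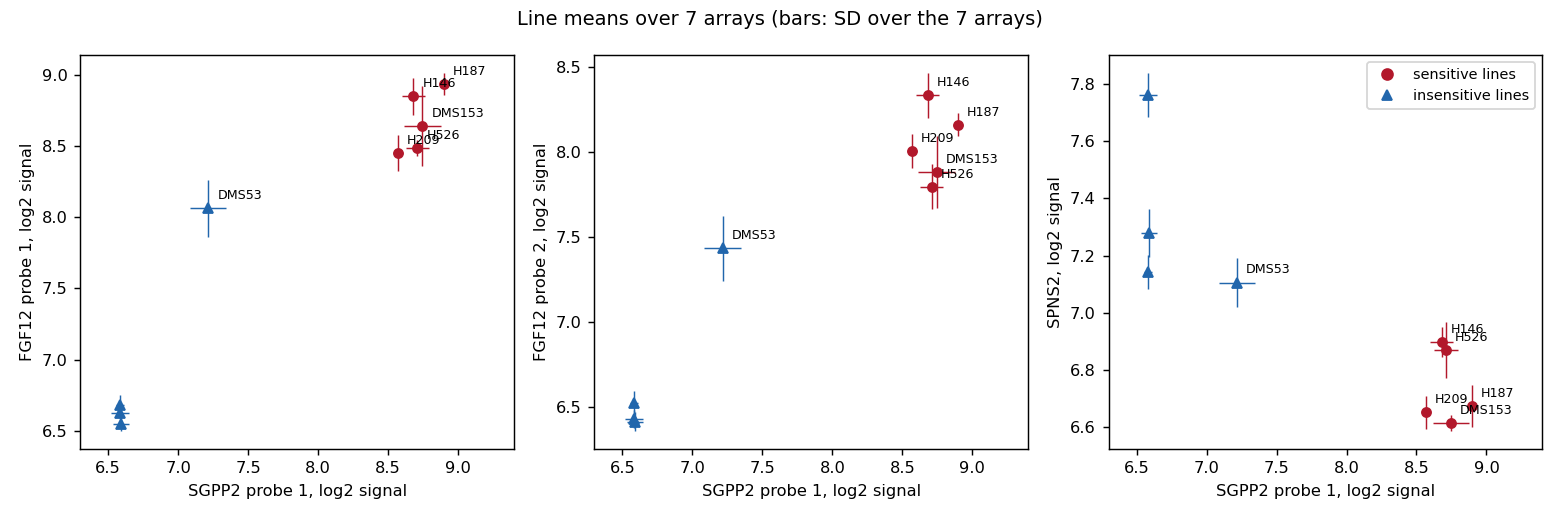
Line means of SGPP2 probe 1 (horizontal axes, log2 signal) against FGF12 probe 1, FGF12 probe 2 and SPNS2 (vertical axes, log2 signal), with bars for the SD over the 7 arrays of a line. Circles are sensitive and triangles insensitive lines, and the unlabelled triangles are H69, H128 and DMS114; the sensitive lines lie at the upper right for FGF12 and at the lower right for SPNS2.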

How the data were processed

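RNA of 9 SCLC lines under 7 conditions was hybridised to Illumina HT-12 v4 arrays by the study. The deposited intensity values are probe averages before normalization, with a detection p-value per probe and array, both exported by the authors from GenomeStudio (version 2010.3). The deposited values normalized by the authors (quantile normalization, used on the log2 scale) were an alternative, and differed from the values used here by at most 0.0151.

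Intensities were quantile normalized and log2 transformed without background correction (limma 3.58.1, R 4.3.3). The filter kept 30716 of 47217 probes, those detected (p under 0.05) on 4 or more of the 63 arrays, and of these 21620 had 1 gene symbol, 4 several and 9092 none in the platform table used. Each treatment was tested against Con with limma (lmFit, eBayes), with the line as a block, Benjamini-Hochberg adjustment over all kept probes and a threshold of 0.05. The same test was run within the sensitive and the insensitive lines and for their difference. The lines pair the arrays: deviations from the condition means correlated with r of 0.928 to 0.982 for arrays of the same line (189 pairs). The fit was tested on simulated data with known changes. A fold against an undetected probe used the lowest detected signal of that array as its floor.

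Every probe of the members is reported. Of the pathway list, the 4 called genes with the largest change and those whose line means did not overlap are named in full. The members and lists were chosen with earlier results of these data known. SGPP2 and FGF12 are both on a panel that the study measured later, some genes of which were picked from these arrays (which ones is not stated), so their likeness is not taken as independent evidence. Alternatives were neqc (offset 16), the authors' values, median scaling, no filter or a stricter one (detection p under 0.01 on at least 32 arrays), fits without the block, with only the compared arrays or without moderation, other sets of sensitive lines, and each line left out. The number of arrays limits the precision, as each line gave 1 array per condition. Figures were drawn with matplotlib 3.10.9.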

Additional observations from a re-analysis of the deposited data

Results flagged for a closer look

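In 64 groups of member values, the highest or lowest line stood apart from the rest in 7 (Dixon's criterion), and chance alone gives about 1 in 20. Some groups hold lines at background and no share over all kept probes was counted, so the 7 are a description only. SGPP2 probe 1 in DMS53 (7.33 in Con) stood above the other insensitive lines, where it was not detected. The gene was chosen by these same Con values. S1PR3 stood out in DMS153 among the sensitive lines (6.93) and in DMS114 among the insensitive lines (6.95) in Con, the lines in which alone it was detected. SGPP2 probe 2, near background everywhere, was low in DMS153 in Con (6.54) and rose most in DMS53 in C+5 (0.24). SGPP1 rose most in H209 in C+0 (0.24), and S1PR3 fell most in DMS114 in A50 (-0.18).

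The 8 kept member probes were searched in every treatment for effects where all sensitive lines moved one way and all insensitive lines the other. A pair of effects was found. No share of all kept probes with this pattern was counted, so the pair is a description only. SGPP1 in C+0 was higher in 5 of 5 sensitive and lower in 4 of 4 insensitive lines, with a difference of 0.13 (limma adjusted p = 0.963). SPHK1 probe 1 in A5 was lower in 5 of 5 sensitive and higher in 4 of 4 insensitive lines, with a difference of -0.13 (adjusted p = 0.999). This probe was not detected on any array of the H lines, so their directions are those of background signal. Neither difference passed the test.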

How the results depend on the processing

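Of the counts of member genes called, those of A5, C+0, Rad and all 6 differences were 0 under every alternative run. The SGPP2 difference in Con was 1.98 and became 3.46 with neqc, 1.03 over both probes, 1.01 with the set in the study's text and 1.66 with the lines whose cisplatin IC50 fell by at least 50%, and it kept its direction. Member counts with median scaling were 1 in A50, 1 in C+50, 1 in A50 within the sensitive lines and 0 in C+50 within them. The C+50 count was 1 without the filter, the C+5 count 1 with the stricter one. With no replicate block no member was called in C+50 (0, also within either group), as with only the compared arrays (0 in each). The fit without the block ignores the pairing of arrays and leaves the line differences in its error. Its pathway counts of A50, C+0, C+5 and C+50 were 0 in both directions. The call of SGPP1 in the sensitive lines was lost (0) with both other sets of lines, and the SGPL1 difference in C+50 turned to -0.022 with the text's set.

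Pathway genes called higher and lower with median scaling were 0 and 9 in A50, 0 and 1 in C+0, 0 and 0 in C+5, with 3 higher in C+50. With neqc, 0 were higher in C+0 and 1 in C+5, with the stricter filter 1 in C+5, with only the compared arrays 0 higher and 1 lower in C+0 and 1 higher in C+5, and without moderation 0 in C+0. Leaving out 1 line at a time gave 0 to 2 members in C+50, 0 to 1 in C+5 and 0 to 1 within the sensitive and the insensitive lines in C+50, and for the pathway 0 to 1 higher and 1 to 2 lower in C+0 and 1 to 2 higher in C+5. The cause of these shifts was not tested. Signals near background limit SGPP2 probe 2, SPHK1, S1PR2 and S1PR3.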
